A study of Mus musculus with 12 samples.

Results

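The genes described here are the heat shock proteins of mouse medullary thymic epithelial cells (mTECs), their J-domain (DnaJ) and BAG cochaperones, and the heat shock factors Hsf1 and Hsf2. They were chosen by gene symbol: Hspa, Hspb, Hspd, Hspe, Hsph and Hsp90 genes, numbered Dnaja, Dnajb and Dnajc genes, Bag1 to Bag6 and both factors. Pseudogene symbols and Hspg2, a proteoglycan, were left out. The choice gave 82 genes of the 50600 gene identifiers measured. They comprise 11 HSP70 genes, 3 of the HSP110 branch, 3 HSP90 genes, 2 chaperonin genes, 8 Hspb genes, 4 Dnaja, 13 Dnajb and 28 Dnajc genes, 6 BAG genes, 2 factors and 2 HSP-binding genes (Hspbap1 and Hspbp1).

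The libraries were made from polyadenylated RNA of primary mTECs sorted by MHC class II, from the thymus of mice 6 to 8 weeks old of the strain B6.B6CB-Psmb11tm1Smta. mTECs present tissue antigens to developing T cells. MHCII hi cells (mTEC hi) and MHCII lo cells (mTEC lo) had 6 libraries each, from Psmb11-/- or Psmb11+/+ (WT) mice. Psmb11 encodes a proteasome subunit of cortical thymic epithelium, and the mutant allele is carried by every cell of the mouse, not by mTECs alone. In each cell type 2 libraries were Psmb11-deficient by every label and 2 were WT by every label. In the other 2 the title contradicted both the source name and the strain label, and these are called disputed. Disputed replicate 1 is titled WT and sourced from deficient mice, and disputed replicate 3 is titled KO and sourced from WT mice. Nothing in the labels ties the libraries of a group to separate mice, and the p-values therefore reflect only how far these libraries spread.

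Each library held between 38791960 and 86793594 gene-assigned reads. Markers matched the labelled cells: Aire, the transcriptional regulator of mature mTECs, had 1672 to 2254 CPM (counts scaled to a common library size, here by TMM) in mTEC hi and 11.09 to 26.04 in mTEC lo, and the epithelial marker Epcam had 592.9 to 639.5 and 783.6 to 950.6. The targeted gene Psmb11 had 0.85 and 1.30 CPM in the deficient mTEC hi libraries and 10.30 and 7.54 in the WT ones. In mTEC lo these were 1.63 and 1.17 against 12.20 and 7.51. Disputed replicate 1 had 8.16 CPM in mTEC hi and 7.10 in mTEC lo, inside or near the WT range, and disputed replicate 3 had 1.12 and 1.26, near the deficient libraries. These values placed no library in a group.

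As background, HSP70 proteins bind exposed hydrophobic stretches of unfolded polypeptides in cycles of ATP binding and hydrolysis. J-domain proteins deliver substrates and stimulate the hydrolysis, and BAG and HSP110 proteins promote the release of ADP. HSP90 acts later on near-native clients, small heat shock proteins hold unfolding proteins without ATP, and the chaperonin HSP60 with its lid HSP10 encloses proteins in the mitochondrial matrix. The inducible cytosolic genes are activated by HSF1 under proteotoxic stress, whereas the chaperones of the endoplasmic reticulum (ER) are activated by the unfolded protein response. Among thymic cells, mTECs are known for transcribing a very wide range of tissue-specific genes.

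Promoter sequences are shown here for 3 features: a near-identical gene pair, an element shared by a divergent gene pair, and the element of the ER response. Their part in the values below was not tested. Promoter windows of RefSeq on GRCm38.p6, 250 bases before to 50 bases after each start, were matched by symbol to 66 of the 82 genes, and 16 had no window. Hspa1a and Hspa1b, both on the minus strand of chromosome 17, differed at 1 of the 200 bases before the start, at chr17:34972157-34972356 and chr17:34959239-34959438. Over all 250 bases before the start they differed at 3, and over the whole window of 300 at 4. The base that differs in the lines below is in capitals.
Hspa1a: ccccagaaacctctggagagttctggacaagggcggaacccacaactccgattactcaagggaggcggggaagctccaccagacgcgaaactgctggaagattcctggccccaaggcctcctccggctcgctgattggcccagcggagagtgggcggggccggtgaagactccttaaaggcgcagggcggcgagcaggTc
Hspa1b: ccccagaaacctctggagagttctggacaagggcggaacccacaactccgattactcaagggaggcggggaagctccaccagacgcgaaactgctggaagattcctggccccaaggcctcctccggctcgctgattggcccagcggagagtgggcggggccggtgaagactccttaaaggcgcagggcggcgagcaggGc

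A heat shock element of 3 units was searched on both strands: GAA, 2 free bases, TTC, 2 free bases and GAA, or on the other strand TTC, 2 free bases, GAA, 2 free bases and TTC. It was present in 0.603% of all 32851 promoter windows and in 0.662% of the 27025 genes with a window. Among the 66 matched genes it was present in 4: Hspd1, Hspe1, Dnajb6 and Hsph1. Hspd1 and Hspe1, which encode HSP60 and HSP10, are transcribed away from each other. Between their RefSeq starts 1 stretch with 2 overlapping matches (chr1:55088055-55088080, in capitals) lies in both windows. In the GENCODE annotation the Hspd1 gene spans 55077835 to 55088243 and covers this stretch, and the Dnajb6 gene starts at 29735688, before its match. The Dnajb6 match lies at chr5:29735848-29735868 on the plus strand and the Hsph1 match at chr5:149636287-149636304 on the minus strand, after the Hsph1 start. The lines give each site in the orientation of its gene, with the match in capitals.
Hspe1: tccgTTCTAGAACCTTCCGGAAggcc
Hspd1: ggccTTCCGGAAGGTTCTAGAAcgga
Dnajb6: ccgaGAATCTTCCGGAAcgct
Hsph1: cagaTTCTGGAAAGTTCt

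The ER stress element, CCAAT and CCACG with 9 free bases between them, was searched on both strands. This element was present in 0.119% of all windows and in 0.137% of all genes with a window. It was present in 3 of the 11 ER chaperone genes with a window: Hspa5 (chr2:34772020-34772049, plus strand), Hsp90b1 (chr10:86705510-86705664, minus strand) and Dnajc3 (chr14:118937822-118937851, plus strand). Hsp90b1 held 2 matches, 1 on each strand. The Hspa5 stretch lies before the RefSeq start but overlaps an Hspa5 exon in the GENCODE annotation, where the gene starts at 34771970. The CCAAT box that opens the element was present on its own in 37.4% of all windows. A match describes letters and does not show that a factor binds there, and the absence of one says only that these letters are not in the window. The element is in capitals.
Hspa5: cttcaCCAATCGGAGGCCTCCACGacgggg
Hsp90b1: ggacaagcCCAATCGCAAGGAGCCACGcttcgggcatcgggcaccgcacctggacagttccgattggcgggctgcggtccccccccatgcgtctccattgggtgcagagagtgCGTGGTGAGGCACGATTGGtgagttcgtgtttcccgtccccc
Dnajc3: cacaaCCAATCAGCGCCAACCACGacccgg

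Levels of different genes were compared as TPM, a unit that accounts for gene length. Hspa8, the constitutive cytosolic HSP70 (HSC70), was the most abundant of the 82 in both cell types, with a mean of 2843 TPM in mTEC hi and 2082 in mTEC lo. In mTEC hi it was followed by Hspa5 at 1949 ± 85.39 TPM (SD, n = 6), Hsp90ab1 at 1915 ± 78.6 and Hsp90b1 at 1480 ± 123.3. In mTEC lo the order was different: Hspa1b came second at 1774 ± 433.2 TPM, then Hsp90ab1 at 1630 ± 123.6, Hspa1a at 1412 ± 298.9 and Hspb1 at 1259 ± 131.0, before Hspa5 at 774.9 ± 85.19. In mTEC hi the neighbours Hspa5 and Hsp90ab1 lay within their SD of each other. In mTEC lo so did Hspa8, Hspa1b, Hsp90ab1, Hspa1a and Hspb1, each with the next. Together the 82 genes made up 1.31 to 1.56% of all TPM in mTEC hi and 1.14 to 1.54% in mTEC lo. The total therefore overlapped while its make-up differed.

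mTEC hi and mTEC lo were compared to ask how the mature cells differ in their folding machinery. Of the 13 genes listed as stress-inducible 7 were lower in mTEC hi, among them Hspa1a, Hspa1b, Dnajb1 and Hspb1, as were 5 of 6 BAG genes and both heat shock factors. Over all genes tested 38% were called lower and 44.2% higher. The main ER chaperones Hspa5 and Hsp90b1 and the chaperonin pair Hspd1 and Hspe1 were higher. The abundant constitutive genes Hspa8 and Hsp90ab1 and the inducible genes Hsp90aa1 and Hsph1 were not called, with log2 fold changes between -0.10 and 0.13. Of the 82 genes 79 had enough reads for the test and 3 (Dnajb7, Dnajb8 and Dnajc5g) did not.

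With edgeR's quasi-likelihood test over all genes and an adjusted p under 0.05, 19 of the 79 were called higher in mTEC hi and 35 lower. Over all genes tested the shares were 44.2% higher, 38% lower and 82.1% either way, against 24.1%, 44.3% and 68.4% of the 79. The median log2 fold change of the 79 was -0.10, against 0.08 over all genes. Values of the 6 mTEC hi libraries did not overlap those of the 6 mTEC lo libraries in 17 genes that were higher and 29 that were lower, where the shares over all genes were 38.5% and 30.3% and those of the 79 were 21.5% and 36.7%. Changes of more than 1.5-fold were called in 12 genes upward and 15 downward, 15.2% and 19% of the 79 against 35.5% and 18.6% of all genes.

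The scaling moved these counts. TMM assumes that most genes do not differ, and scaling by library size alone moved the median of all genes by 0.29 on the log2 scale. With library size alone 41 of the 79 were called higher and 23 lower, where the shares over all genes were 54% and 26.5%. The share of called genes that were higher went from 53.8% to 67.0% over all genes and from 35.2% to 64.1% among the heat shock genes. Folds below about this shift are therefore relative to the scaling. Bulk RNA also cannot tell fewer cells of a type from less RNA per cell.

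**Figure D1:**
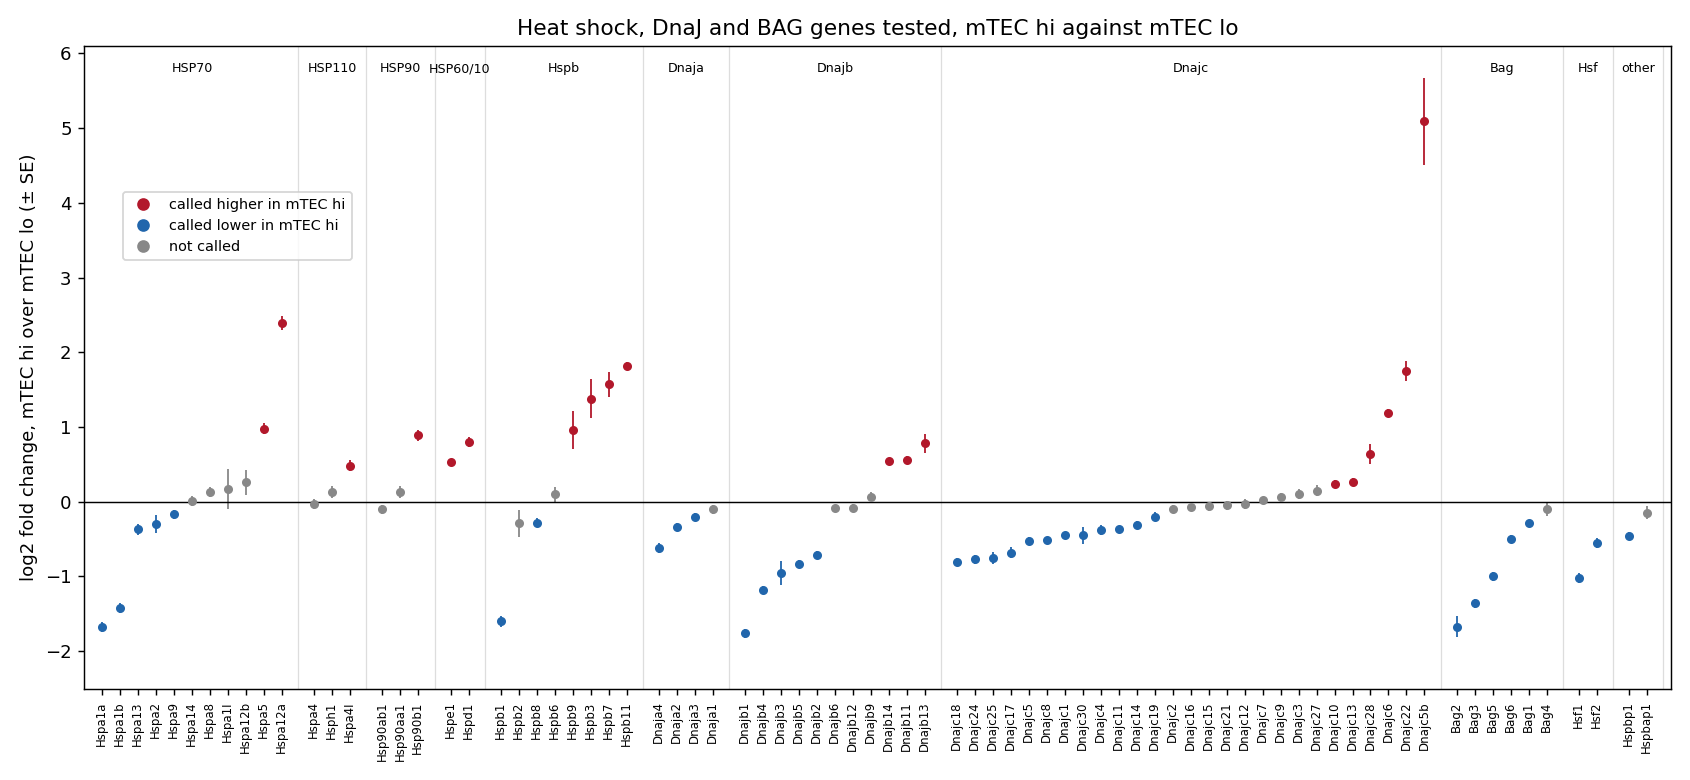
Log2 fold change (mTEC hi over mTEC lo, with its standard error) of each of the 79 genes tested, ordered within its family; red points were called higher, blue points lower and grey points were not called. The lowest points are Dnajb1, Hspa1a, Bag2 and Hspb1, and 5 of 6 BAG genes and both factors were called lower, as were 38% of all genes. Dnajc5b, the highest point, had 10 reads in all mTEC lo libraries together.

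The cytosolic, stress-inducible chaperones were described first. Hspa1a and Hspa1b encode near-identical inducible HSP70 proteins and lie next to each other on chromosome 17 (34969190 to 34972156 and 34956436 to 34959238, GRCm38). Hspa1a had 151.5 to 243.9 CPM in mTEC hi (median 185.5) and 538.2 to 745.4 in mTEC lo (median 566.8). Hspa1b had 410.4 to 664.5 CPM in mTEC hi (median 481.0) and 1140 to 1717 in mTEC lo (median 1268). Every mTEC lo library was above every mTEC hi library for both genes. The log2 fold changes were -1.68 ± 0.0676 (SE; edgeR adjusted p = 2.4e-13) and -1.42 ± 0.067 (edgeR adjusted p = 2.08e-12).

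The split between these copies is uncertain. Reads that match both copies are not in the unique read counts: the pair had 0.634 reads per RSEM expected count, against 1.93 over all genes. RSEM, which distributes shared reads, gave log2 fold changes of -1.54 for Hspa1a (edgeR adjusted p = 2.74e-11) and -1.33 for Hspa1b (edgeR adjusted p = 1.92e-10). Hspa1a also shares exon bases with the predicted gene Gm20481 on the other strand, and the libraries are not stranded. Both counts put the pair lower in mTEC hi.

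Dnajb1, the J protein (HSP40) that works with inducible HSP70 (chromosome 8, 83608193 to 83612653), had the lowest fold change of the 79 genes. It had 193.0 to 293.9 CPM in mTEC hi (median 227.8) and 685.7 to 975.4 in mTEC lo (median 721.1). The groups did not overlap, and the log2 fold change was -1.76 ± 0.062 (edgeR adjusted p = 4.01e-14). Its relative Dnajb4, another class B J protein of the cytosol, fell by 1.18 on the log2 scale.

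Hspb1 (HSP25), a small heat shock protein that holds unfolding proteins and binds actin filaments, had 136.5 to 201.1 CPM in mTEC hi (median 163.8) and 464.5 to 542.9 in mTEC lo (median 485.3). The groups did not overlap, with a log2 fold change of -1.60 ± 0.0712 (edgeR adjusted p = 9.71e-13). Bag3, which links HSP70 and small heat shock proteins to selective autophagy, had 43.33 to 55.78 CPM in mTEC hi (median 51.0) and 113.6 to 148.9 in mTEC lo (median 125.4), again without overlap. Its log2 fold change was -1.36 ± 0.0606 (edgeR adjusted p = 9.31e-13). Hspb8, the small heat shock partner of BAG3, had a smaller log2 fold change of -0.28 ± 0.0559 with overlapping groups, and 0.01 with library size alone.

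Other genes of the inducible set were not called. Hsph1 (HSP110), an exchange factor that helps HSP70 dissolve aggregates, had 208.5 to 341.1 CPM in mTEC hi (median 266.3) and 177.2 to 382.9 in mTEC lo (median 220.7). Hsp90aa1, the inducible HSP90, had 453.7 to 595.8 CPM (median 528.7) and 357.6 to 621.1 (median 491.0). Hspa8 had 1681 to 1979 CPM (median 1898) and 1400 to 1956 (median 1732). The libraries overlapped widely in all 3 genes, whose log2 fold changes were each 0.13, with standard errors of 0.0823, 0.0819 and 0.0681. Dnaja1, a class A J protein, had a log2 fold change of -0.10 ± 0.0612.

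Hsp90ab1, the constitutive HSP90 that folds kinases and steroid receptors, had 2524 to 2753 CPM in mTEC hi (median 2658) and 2496 to 3056 in mTEC lo (median 2922), a log2 fold change of -0.10 ± 0.061. These genes shifted with the scaling. Under library size alone Hspa8 had 0.42 (edgeR adjusted p = 3.63e-06), Hsph1 0.41 (edgeR adjusted p = 0.000215), Hsp90aa1 0.41 (edgeR adjusted p = 8.56e-05), Hsp90ab1 0.19 (edgeR adjusted p = 0.00182) and Dnaja1 0.18 (edgeR adjusted p = 0.0122). Hspa8, Hsph1 and Hsp90aa1 were also called higher with RLE size factors, with no filter and with RSEM counts (0.22, 0.24 and 0.20). Hspa8 was called in addition with DESeq2 (0.19, DESeq2 adjusted p = 0.00774) and with the title number as a replicate block (0.14, edgeR adjusted p = 0.0259).

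Of the 13 genes listed as stress-inducible, 7 fell (Hspa1a, Hspa1b, Dnajb1, Dnajb4, Hspb1, Hspb8 and Bag3), 2 rose (Hspd1 and Hspe1, which are mitochondrial) and 4 were not called. The median log2 fold change was -0.28, or 0.01 with library size alone, where 6 rose and 6 fell. Over all genes 44.2% rose and 38% fell, or 54% and 26.5% with library size alone. The summed level of the 13 was 5736 to 7650 TPM in mTEC hi and 6804 to 9864 in mTEC lo, and the groups overlapped. Hspa8, which the list includes, had the largest part of it, with means of 2843 and 2082 TPM. Summed as CPM the levels were 4087 to 5229 and 5662 to 7896, without overlap. Of the 10 other cytosolic chaperones listed, none was called higher and 4 fell, Dnaja2 by 0.34, Dnaja4 by 0.62, Dnajb2 by 0.71 and Dnajb5 by 0.83 on the log2 scale. With library size alone 6 of those 10 were called higher and 3 lower.

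**Figure D2:**
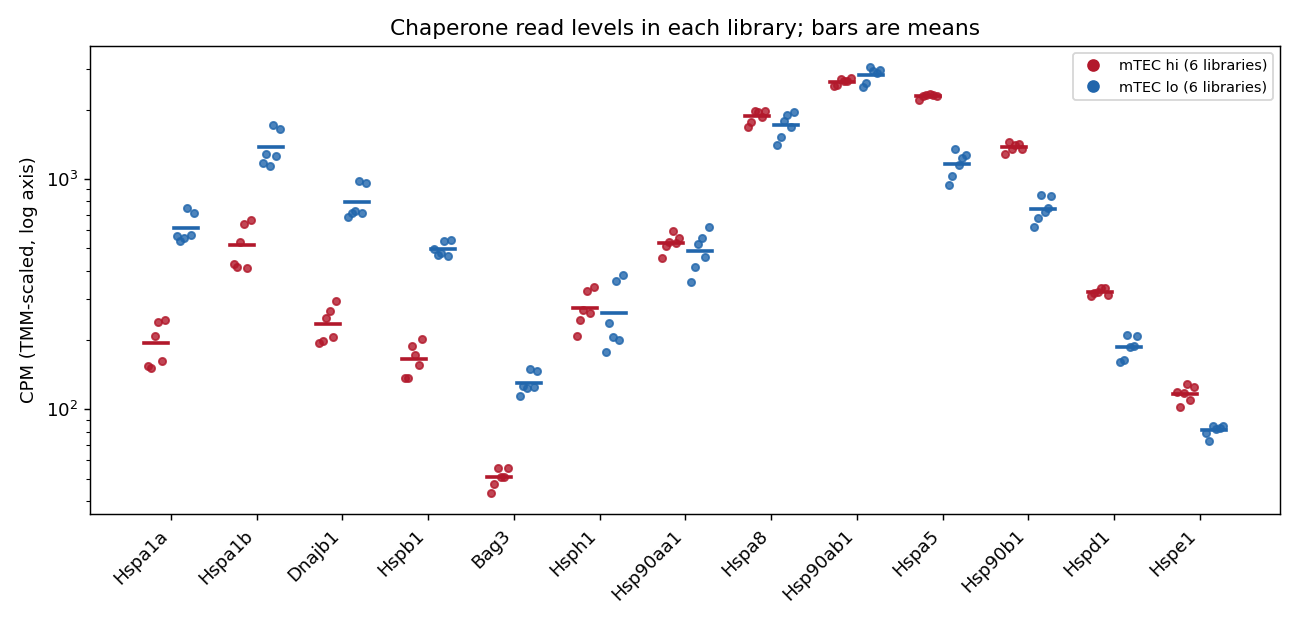
Levels of 13 chaperone genes in each library as TMM-scaled CPM on a log axis; points are libraries (6 of mTEC hi in red, 6 of mTEC lo in blue) and bars are group means. The points of Hspa1a, Hspa1b, Dnajb1, Hspb1 and Bag3 are separate and lower in mTEC hi, those of Hsph1, Hsp90aa1, Hspa8 and Hsp90ab1 overlap, and those of Hspa5, Hsp90b1, Hspd1 and Hspe1 are separate and higher in mTEC hi.

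Immediate early genes that dissociation of tissue is known to induce were also lower in mTEC hi. All 10 of the 10 listed (Fos, Fosb, Jun, Junb, Egr1, Atf3, Ier2, Ier3, Dusp1 and Zfp36) were called lower in mTEC hi, with a median log2 fold change of -1.96, or -1.68 with library size alone. Over all genes 38% were called lower, or 26.5% with library size alone. Their summed level was 5066 to 6940 CPM in mTEC hi and 22440 to 28210 in mTEC lo, and none was at 0. Their part in the chaperone difference was not tested.

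Markers of other cells also differed between the cell types, where 44.2% of all genes were called higher in mTEC hi and 38% lower. All 4 B cell markers were called higher in mTEC hi, with a sum of 26.25 to 30.61 CPM against 0.56 to 2.19 in mTEC lo. So were all 5 dendritic cell and macrophage markers, at 60.21 to 73.05 against 3.68 to 8.25 CPM, and 4 of 8 thymocyte markers, at 64.3 to 163.1 against 31.43 to 83.51 CPM. All 4 tuft cell markers were called lower, at 196.6 to 301.3 against 1091 to 1672 CPM. Of 3 markers of cortical thymic epithelium Ccl25 (3.83) and Ly75 (0.23) were called higher and Prss16 (-0.25) lower. Their sum was 487.0 to 595.7 against 139.5 to 188.3 CPM. The difference of the sums lay mostly in Ccl25, with means of 410.5 and 29.04 CPM. Of 3 fibroblast markers Dcn (-2.19) and Pdgfra (-1.88) were called lower and Col1a1 (3.34) higher, with a sum of 113.2 to 132.1 against 158.0 to 228.3 CPM. Of 3 endothelial markers 1 was called lower, and their sums overlapped. No listed gene was without reads in either cell type, and the part of these cells in the values of the chaperones was not tested.

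The factors that activate this set were lower as well. Hsf1, the main factor of the heat shock response, had 29.3 to 36.43 CPM in mTEC hi (median 31.46) and 57.63 to 71.13 in mTEC lo (median 66.0), a log2 fold change of -1.02 ± 0.0631 (edgeR adjusted p = 8.32e-11). Hsf2, the related factor that joins HSF1 in mixed trimers, had 26.68 to 32.64 CPM and 37.11 to 49.72, a log2 fold change of -0.55 ± 0.0637 (edgeR adjusted p = 3.93e-07). Neither overlapped between the cell types. Both were also called lower with library size alone.

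BAG proteins bind the ATPase domain of HSP70 and promote the release of its substrate. Of the 6 BAG genes 5 fell in mTEC hi and none rose, with a median log2 fold change of -0.75, and 4 fell with library size alone. Over all genes 38% fell, or 26.5% with library size alone. Bag2, which inhibits the HSP70-bound ubiquitin ligase CHIP, had 1.98 to 3.68 CPM in mTEC hi (median 2.92) and 8.35 to 10.41 in mTEC lo (median 9.11). Its log2 fold change was -1.67 ± 0.142 (edgeR adjusted p = 6.41e-09), and it shares exon bases with the predicted gene Gm37905 on the other strand. Bag5 fell by 1.0, Bag6, which guards tail-anchored and other hydrophobic proteins, by 0.50, and Bag1 by 0.29 on the log2 scale. Bag4 had a log2 fold change of -0.10 and was not called.

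The exchange factors of the HSP110 branch did not follow the BAG genes. Hspa4l (APG-1) rose, with a log2 fold change of 0.48 ± 0.0737 (edgeR adjusted p = 1.1e-05), though its libraries overlapped. Hspa4 (APG-2) had a log2 fold change of -0.03 ± 0.0635. Hspbp1, an exchange factor of another family, fell by 0.46 on the log2 scale.

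In the ER the 2 most abundant chaperones were higher in mTEC hi. Hspa5 (BiP, chromosome 2, 34771970 to 34777547), the ER's HSP70, had 2199 to 2348 CPM in mTEC hi (median 2303) and 943.2 to 1348 in mTEC lo (median 1188). The mTEC hi libraries lay close together and above every mTEC lo library. The log2 fold change was 0.98 ± 0.0774 (edgeR adjusted p = 2.42e-09). Hsp90b1 (GRP94), the ER's HSP90, had 1279 to 1454 CPM (median 1379) against 615.5 to 854.3 (median 735.1), also without overlap, and a log2 fold change of 0.89 ± 0.0751 (edgeR adjusted p = 6.35e-09).

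Of the 12 ER chaperone genes 5 rose and 3 fell, where 44.2% of all genes rose and 38% fell. Besides Hspa5 and Hsp90b1, the risers were Dnajb11 (ERdj3, a secreted cochaperone of BiP) at 0.56, Dnajb14, a J protein of the ER membrane, at 0.54, and Dnajc10 (ERdj5, a disulfide reductase) at 0.24. Dnajc25, of the ER membrane, fell by 0.75, Dnajc1 (ERdj1, which binds ribosomes) by 0.45 and Hspa13 (STCH) by 0.37 on the log2 scale. Dnajc3 (p58IPK) had 0.10 and Dnajb9 (ERdj4) 0.07, and neither was called, so of the 3 genes with the ER stress element shown above, Hspa5 and Hsp90b1 rose and Dnajc3 was not called. Dnajb12 had -0.08 and Dnajc16 -0.07. The median of the 12 was 0.08, equal to that of all genes, or 0.37 with library size alone, where 9 rose and 2 fell. With that scaling 54% of all genes rose and 26.5% fell. The summed ER level was 3480 to 4090 TPM in mTEC hi and 1409 to 1899 in mTEC lo, with no overlap, and Hspa5 and Hsp90b1 made up most of it.

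**Figure D3:**
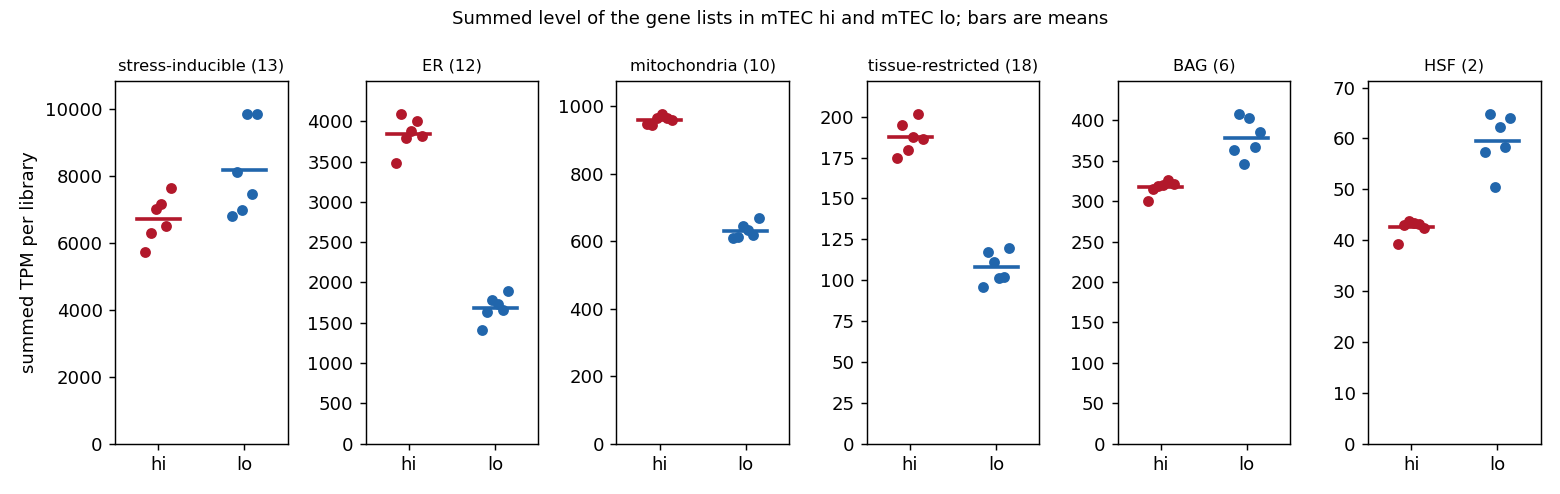
Summed TPM of 6 lists of the heat shock genes in each library (points) with group means (bars), mTEC hi in red and mTEC lo in blue, each panel with its own axis from 0. The ER and mitochondrial sums are separate and higher in mTEC hi, the BAG and HSF sums are separate and lower, and the stress-inducible sums overlap (5736 to 7650 against 6804 to 9864 TPM). As CPM the stress-inducible sums do not overlap (4087 to 5229 against 5662 to 7896).

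In mitochondria the chaperonin was higher and most J proteins were slightly lower. Hspd1 (HSP60) had 309.5 to 336.9 CPM in mTEC hi (median 322.2) and 159.9 to 210.6 in mTEC lo (median 187.1), without overlap. Its log2 fold change was 0.80 ± 0.0659 (edgeR adjusted p = 4.62e-09). Hspe1 (HSP10), which shares the element shown above, had 102.5 to 128.5 CPM against 72.5 to 84.91 and a log2 fold change of 0.53 ± 0.0473 (edgeR adjusted p = 1.45e-08). The exons of Hspd1 and Hspe1 overlap on opposite strands at their starts.

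Hspa9 (mortalin), the HSP70 of the matrix and of protein import, differed little, with a log2 fold change of -0.17 ± 0.0597 (edgeR adjusted p = 0.0173) and overlapping libraries. It was 0.12 with library size alone. Of the 10 mitochondrial genes 3 rose and 6 fell (44.2% and 38% over all genes), with a median of -0.18. The third that rose was Dnajc28, at 0.64. The falls ranged from Dnajc30 at -0.45 to Hspa9. With library size alone 5 rose and none fell (median 0.10), against 54% and 26.5% of all genes. The calls of all 6 falls therefore depend on the scaling. The sign turned in 3 of the 6 (Hspa9, Dnaja3 and Dnajc19) and stayed negative in Dnajc11, Dnajc30 and Dnajc4, while Hspd1, Hspe1 and Dnajc28 had the same sign in both. The summed mitochondrial level was 945.7 to 977.6 TPM in mTEC hi and 608.8 to 669.8 in mTEC lo.

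Of the 82 genes 18 are known mainly from testis, muscle, brain or other tissues, and 15 of these could be tested. A gene of this kind can pass the filter through the cell type where it is high, so no count of rises is drawn from them and they are given singly. Dnajb3 and Hspa2 fell, by 0.95 and 0.30 on the log2 scale. The summed level of all 18 was 174.9 to 201.7 TPM in mTEC hi and 95.96 to 120.0 in mTEC lo.

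Hspa12a, a distant HSP70 relative expressed mainly in brain, had 16.96 to 20.62 CPM in mTEC hi (median 17.5) and 2.99 to 3.94 in mTEC lo (median 3.43). The groups were far apart, with a log2 fold change of 2.39 ± 0.09 (edgeR adjusted p = 9.64e-14). It shares exon bases with Eno4 on the other strand, and the libraries are not stranded. Dnajc6 (auxilin of neurons), which uncoats clathrin vesicles, had 140.5 to 172.6 CPM against 61.28 to 76.69 and a log2 fold change of 1.19 ± 0.0573 (edgeR adjusted p = 2.78e-12).

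Hspb7, a small heat shock protein of heart and skeletal muscle, had 2.6 to 3.99 CPM in mTEC hi and 0.76 to 1.23 in mTEC lo, a log2 fold change of 1.57 ± 0.168 (edgeR adjusted p = 1.43e-07). Hspb3, of muscle, and Hspb9, of testis, also rose, by 1.38 and 0.96, from means of 0.48 and 0.32 CPM in mTEC lo. Dnajb13, an axonemal J protein, rose by 0.78. The muscle HSP20 gene Hspb6 had a log2 fold change of 0.10, and the muscle gene Hspb2 had -0.29. Neither was called. Of 3 muscle marker genes (Ckm, Acta1 and Myog) 1 was called higher in mTEC hi, against 44.2% of all genes. Their sum was 14.5 to 23.94 CPM in mTEC hi and 11.42 to 20.94 in mTEC lo. None was at 0, and their part was not tested.

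Dnajc5b, a cysteine string protein of testis, had 29 to 122 reads in each mTEC hi library, 421 in all. In mTEC lo it had 10 reads in all 6 libraries together, 8 of them in 1 library. It was called higher, but its fitted fold rests on those 10 reads and is not given. It also shares exon bases with an antisense gene. The 3 untested genes had few reads: 51 and 24 in mTEC hi and mTEC lo for Dnajb7, 50 and 14 for Dnajb8, and 71 and 4 for Dnajc5g.

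The other large rises were outside these lists. Hspb11 (IFT25), a component of the intraflagellar transport complex that is named for its resemblance to small heat shock proteins, had 72.2 to 81.94 CPM in mTEC hi (median 79.87) and 21.18 to 24.04 in mTEC lo (median 21.5). The libraries of each group lay close together, and the log2 fold change was 1.82 ± 0.0481 (edgeR adjusted p = 9.21e-16). Dnajc22 had 4.41 to 6.73 CPM against 1.57 to 1.93, a log2 fold change of 1.75 ± 0.131 (edgeR adjusted p = 1.28e-09).

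Partners of these chaperones were read against the shares over all genes, 44.2% higher and 38% lower, or 54% and 26.5% with library size alone. Of 13 HSP90 cochaperones 7 fell and 1 rose, with the largest change in Unc45a, a myosin chaperone, at -1.41 (57.28 CPM in mTEC hi and 152.7 in mTEC lo). With library size alone 6 rose and 4 fell. Of the 8 subunits of the cytosolic chaperonin TRiC, which folds actin and tubulin, 4 rose, near the share of all genes, and none fell, with the largest change in Tcp1 at 0.35. All 8 rose with library size alone. Without the 4 libraries of title number 1, a choice made after seeing the data, 3 rose and 1 fell. Of 6 prefoldin subunits, which hand actin and tubulin to TRiC, 2 rose and 3 fell, with the largest change in Pfdn5 at -1.01.

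The cell type difference was similar in size in both genotypes for the genes named first. Over the undisputed libraries the log2 fold change of Dnajb1 was -1.69 in deficient and -1.81 in WT libraries, that of Hspa1b was -1.28 and -1.40, and that of Hspa5 was 0.97 and 0.91. Hsph1 had 0.31 in deficient and -0.19 in WT libraries. The test of that difference is given with the genotype comparison.

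The 2 deficient libraries of each cell type were set against its 2 WT libraries to ask what the loss of this proteasome subunit changes. In mTEC hi no heat shock gene was called by edgeR with its count filter or by DESeq2. In mTEC lo 1 was called by edgeR, Hsph1, which was lower in deficient libraries. The inducible chaperones were mostly lower in the deficient libraries of both cell types. The log2 differences were small, and edgeR with its filter called none of the others. With no filter edgeR also called Hspa1a and Hspa1b in both cell types and Hsph1 in mTEC hi. The disputed libraries of both kinds also had low levels of these genes.

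In mTEC hi 0 of 82 genes had an edgeR adjusted p under 0.05, against 0.00375% of all genes (1 gene). DESeq2 also called 0 there, against 0.00735% of all genes, and 5 had an unadjusted p under 0.05. In mTEC lo 1 of 82 was called, against 0.015% of all genes (4 genes). DESeq2 called 4 of the 82 in mTEC lo (Hsph1, Hspa1b, Dnaja1 and Dnajb1), against 0.618% of all genes. At an unadjusted p under 0.05, 5 genes were below WT in mTEC hi (6.1% of the 82, against 1.79% of all genes) and 0 above (against 1.66%). In mTEC lo 11 were below WT (13.4%, against 6%) and 1, Hspb6, above (against 5.3%). The deficient libraries did not overlap WT and were lower in 12 genes in mTEC hi and 18 in mTEC lo, 14.6% and 22% of the 82 against 17.7% of all genes in each. They did not overlap and were higher in 8 and 17 genes, 9.76% and 20.7% against 18.5% and 18.6%.

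Hsph1 (chromosome 5, 149614287 to 149636376) had 177.2 and 205.0 CPM in the deficient mTEC lo libraries and 361.5 and 382.9 in the WT ones. The disputed libraries had 236.5 (replicate 1) and 200.2 (replicate 3), both nearer the deficient ones. The log2 difference was -0.97 ± 0.12 (edgeR adjusted p = 0.0168), a 1.96-fold lower level in deficient libraries. Between the 2 libraries numbered 2 in their titles it was -0.82. The call was lost when all 12 libraries took their genotype from the title (-0.76, edgeR adjusted p = 0.109) or from the source name (-0.61, edgeR adjusted p = 0.449). It was also lost without mTEC hi WT replicate 2 (edgeR adjusted p = 0.0823) or replicate 3 (edgeR adjusted p = 0.0516). Those libraries enter only through the estimate of the spread.

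In mTEC hi Hsph1 had 208.5 and 270.0 CPM in deficient, 327.0 and 341.1 in WT and 242.9 and 262.5 in disputed libraries. The log2 difference was -0.48 ± 0.119 (edgeR adjusted p = 1.0), and it was below WT in both deficient libraries. The difference between the cell types in this effect was 0.49 ± 0.168 (unadjusted p = 0.0113 and adjusted p = 1.0 by edgeR), so the effect was not shown to differ between mTEC hi and mTEC lo. No heat shock gene passed that test, with an edgeR share of 0% over all genes, and 2 had an unadjusted p under 0.05 (Hsph1 and Dnajc5b, the latter with almost no reads in mTEC lo). DESeq2 called none of the 82 either, against 0.0458% of all genes.

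Hspa1b had 428.8 and 533.1 CPM in deficient mTEC hi libraries, 635.2 and 664.5 in WT and 416.7 and 410.4 in disputed ones. In mTEC lo it had 1174 and 1140 CPM in deficient, 1717 and 1652 in WT and 1279 and 1257 in disputed libraries. In both cell types the WT libraries were the highest of the 6. The disputed libraries were below both deficient ones in mTEC hi, and between the groups but nearer the deficient ones in mTEC lo. The log2 differences were -0.43 ± 0.107 in mTEC hi (edgeR adjusted p = 1.0) and -0.55 ± 0.107 in mTEC lo (edgeR adjusted p = 0.117).

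Hspa1a had a log2 difference of -0.41 in mTEC hi and -0.39 in mTEC lo, and Dnajb1 had -0.34 and -0.46. For Dnajb1 the mTEC lo values were 685.7 and 727.4 CPM in deficient, 975.4 and 961.2 in WT and 712.2 and 714.8 in disputed libraries, so the 4 other libraries lay close together below the WT ones. Dnaja1 had -0.28 and -0.50, with 295.9 and 289.8 CPM in deficient mTEC lo, 383.1 and 439.0 in WT and 323.2 and 305.4 in disputed libraries. None of these was called by edgeR in the fit of the 8 undisputed libraries with the count filter, where the lowest adjusted p was 0.117 for Hspa1b. These negatives depend on the filter. With no filter edgeR called Hspa1b (edgeR adjusted p = 4.76e-07), Dnajb1 (edgeR adjusted p = 0.000189) and Hspa1a (edgeR adjusted p = 0.00479) in mTEC lo.

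None of 4 further genes was called by edgeR with the filter either, though with no filter Hsp90aa1 was called in mTEC lo (edgeR adjusted p = 0.00104). Hsp90aa1 had -0.22 in mTEC hi and -0.43 in mTEC lo, Hspa8 had -0.09 and -0.29, Bag3 -0.10 and -0.32, and Hspb1 -0.19 and -0.16. Of the 13 stress-inducible genes 12 were below WT in mTEC hi and 12 in mTEC lo, with Hspb8 the exception in both. Their medians were -0.19 and -0.32, against 0.01 and 0.00 over all genes. Deficient libraries did not overlap WT and were lower in 7 of the 13 in mTEC hi and in 10 in mTEC lo, where 17.7% of all genes did so in each. The 82 genes together had medians of -0.02 and 0.00.

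**Figure D4:**
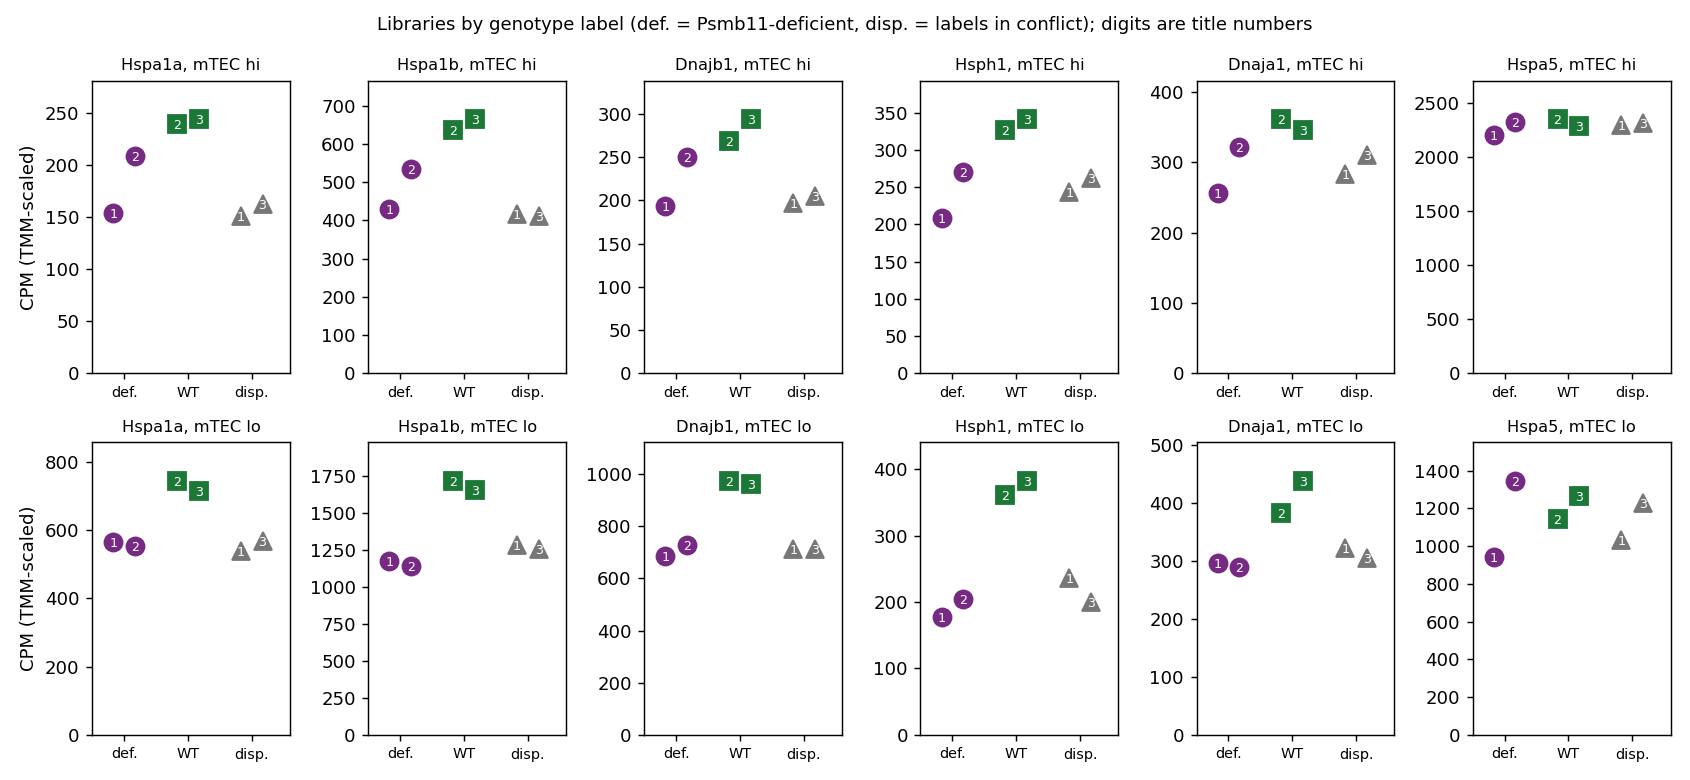
TMM-scaled CPM of 6 chaperone genes in every library by genotype label (circles Psmb11-deficient, squares WT, triangles disputed; the digit in a point is the number in the library's title), mTEC hi above and mTEC lo below, all axes from 0. The undisputed WT libraries are the highest for the first 5 genes in both rows, the disputed libraries lie with or near the deficient ones, and Hspa5 shows no such order.

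The labels of the disputed libraries contradict each other, so these libraries were given no genotype. Their Psmb11 levels, given above, were near those of the genotype in the title in all 4. Of the libraries numbered 1, the one titled KO and the one titled WT had nearly the same Hspa1b level, with a ratio of 1.03 in mTEC hi and 0.918 in mTEC lo. The ratio of title KO to title WT was 0.839 and 0.664 for number 2, and 0.618 and 0.761 for number 3. For Hsph1 the ratios were 0.858 and 0.749 for number 1, 0.826 and 0.567 for number 2, and 0.77 and 0.523 for number 3, below 1 in all 6. With genotype from the title the log2 difference of Hspa1b was -0.32 in mTEC hi and -0.38 in mTEC lo, and with genotype from the source name it was -0.31 and -0.36.

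Markers of thymocytes, which lie against mTECs in the thymus, moved with genotype as well. All 8 listed (Cd3e, Cd4, Cd8a, Cd8b1, Rag1, Ptcra, Lck and Dntt) were above WT in deficient libraries of both cell types, with none called and none at 0. Their median log2 differences were 1.07 in mTEC hi and 1.31 in mTEC lo. At an unadjusted edgeR p under 0.05, 6 and 8 were above WT, against 1.66% and 5.3% of all genes. Deficient libraries did not overlap WT and were higher in 6 and 8, against 18.5% and 18.6%. The summed level of the 8 was 163.1 and 72.94 CPM in deficient, 68.27 and 65.58 in WT, and 111.2 and 64.3 in disputed mTEC hi libraries. In mTEC lo it was 83.51 and 53.35 in deficient, 31.43 and 35.1 in WT, and 60.59 and 42.59 in disputed libraries. All 10 immediate early genes were below WT in mTEC hi and 9 of 10 in mTEC lo, with median log2 differences of -0.18 and -0.05, where those of the stress-inducible genes were -0.19 and -0.32. None of the 10 was called. Their sums were 5066 and 6586 CPM in deficient, 6326 and 6940 in WT and 5109 and 6091 in disputed mTEC hi libraries. In mTEC lo they were 22440 and 24260 in deficient, 23760 and 24970 in WT and 24290 and 28210 in disputed libraries, and deficient and WT libraries overlapped in both cell types. All 4 tuft cell markers were below WT in both cell types, with none called. The part of these markers in the chaperone differences was not tested.

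The other chaperone groups had small differences by genotype, and no gene of the lists in the next sentences was called. Of the 12 ER genes 7 were below WT in mTEC hi and 5 in mTEC lo, with medians of -0.02 and 0.01. Of the 10 mitochondrial genes 4 and 3 were below WT, and of the 6 BAG genes 5 and 3, with medians between -0.04 and 0.04. Hsf1 and Hsf2 were below WT in both cell types, with medians of -0.03 and -0.15. All 8 TRiC subunits were above WT in both cell types, with medians of 0.09 and 0.06. Deficient libraries did not overlap WT and were higher in 5 of the 8 in mTEC hi and 1 in mTEC lo, against 18.5% and 18.6% of all genes. Of the 6 prefoldin subunits 5 were above WT in mTEC hi and 6 in mTEC lo, with medians of 0.08 and 0.23. Of these 3 and 4 did not overlap WT. Of the 13 HSP90 cochaperones 9 and 5 were above WT, with medians of 0.03 and -0.04. The gene of lowest unadjusted p above WT was Dnajb3 in mTEC hi, a testis J protein with 1.84 and 1.32 CPM in deficient and 1.24 and 0.85 in WT libraries. In mTEC lo it was Hspb6, with 8.76 and 6.79 against 6.16 and 5.46 CPM (log2 difference 0.41, edgeR adjusted p = 0.434).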

How the data were processed

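RNA sequencing libraries of mTEC hi and mTEC lo (6 each) were analysed. The authors deposited, for each library, counts of uniquely assigned reads per gene (whole numbers, no normalisation), RSEM expected counts and TPM. RSEM 1.2.28, STAR 2.5.1b and CASAVA 1.8.2 are named in the submitters' processing notes, with GRCh38 as the build although the gene identifiers are those of mouse. The authors' annotation is not stated in those notes. Both strand columns held about equal shares of reads, so the unstranded counts were used. Rows that name no gene were left out. Reads without a feature made up 8.26 to 17.24% of gene-assigned, ambiguous and no-feature reads together. Symbols and GRCm38 coordinates came from GENCODE M21 by stable identifier (50376 of 50600 matched, 45737 with the same version). Of the 82 genes 31 share exon bases with another gene.

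Low counts were removed by filterByExpr at a count minimum of 10 and a total minimum of 15, and the rest were scaled by TMM and tested over all genes with the quasi-likelihood F test of edgeR 4.0.16 (R 4.3.3), with Benjamini-Hochberg adjustment and a threshold of 0.05. All 12 libraries entered the cell type comparison, adjusted for genotype class, and genotypes over the 8 undisputed libraries in a model of 4 groups. The standard error is the log2 fold change divided by the root of F. The fit was tested on simulated data. No pair of libraries of a cell type agreed within sampling noise (lowest chi-square per gene 7.77).

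The genes and lists were chosen with earlier results of these data known. Values are given for listed chaperones, for the 5 largest rises and falls among called genes of at least 2 CPM, for the 3 of highest TPM, and for the genotypes for 8 inducible genes, called genes and the gene of lowest p in each direction. Single genes beyond that rule (Dnajc5b, the genes known from other tissues and Dnaja1 in the genotype comparison) were chosen after their values were seen. Alternatives were RLE size factors, library size alone, DESeq2 1.42.0, no filter, rounded RSEM counts, each library left out, replicate blocks, undisputed libraries, a 1.5-fold minimum, and genotype from title or source name. Library size alone for genotypes and leaving out title number 1 were added after seeing the data. The counts of 1 list of partner genes are not reported here.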

Additional observations from a re-analysis of the deposited data

Results flagged for a closer look

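In 96 checks of a single library against the other 5 of its cell type, 3 stood apart, and chance alone gives about 5% (1 in 20 groups). Dnajb11 (ERdj3) had 118.6 CPM in mTEC lo Psmb11-deficient replicate 2, where the other 5 mTEC lo libraries had 95.74 to 101.8. Dnajc1 (ERdj1) had 33.39 CPM in mTEC hi Psmb11-deficient replicate 2, where the others had 34.97 to 35.6. Bag4 had 14.28 CPM in mTEC lo disputed replicate 1, where the others had 16.67 to 17.78.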

How the results depend on the processing

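With library size alone 41 heat shock genes were called higher in mTEC hi and 23 lower, and with a 1.5-fold minimum 12 and 15. With each other alternative both counts were within 1.5 times those reported. Library size alone turned the sign of Hsp90ab1 (0.19), Dnaja1 (0.18), Hspb8 (0.01), Dnajb12 (0.21), Dnajc16 (0.21), Hspa9 (0.12), Dnaja3 (0.09), Dnajc15 (0.22), Dnajc19 (0.08), Bag4 (0.19), Hspa4 (0.26), Dnajb6 (0.20), Dnajc2 (0.19), Dnajc12 (0.26), Dnajc21 (0.24) and Hspbap1 (0.14), and left Hspb2 and Bag1 at 0.00. RSEM counts turned Dnaja1 (0.06), Hspb2 (0.12), Hspa1l (-0.18), Hspa4 (0.05), Dnajc12 (0.04) and Dnajc21 (0.02), DESeq2 Hspa4 (0.03), Dnajc12 (0.03) and Dnajc21 (0.01), and RLE size factors, tabulated only for the genes listed by role or named, Dnajc15 (0.00). Summed as CPM in place of TPM, the log2 ratio of mTEC hi to mTEC lo was -0.50 in place of -0.27 for the stress-inducible list, 0.77 in place of 1.19 for the ER, 0.22 in place of 0.60 for mitochondria, -0.64 in place of -0.25 for BAG and -0.82 in place of -0.48 for HSF.

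For the genotypes in mTEC hi 3 genes were called with no filter: Hsph1 (edgeR adjusted p = 0.0022), Hspa1b (edgeR adjusted p = 0.00432) and Hspa1a (edgeR adjusted p = 0.0233). The share over all genes with no filter is not given here, so counts under that setting have nothing to be read against. In mTEC lo 4 were called with DESeq2 (against 0.618% of all genes) and 6 with no filter, among them Hspa1b, Dnajb1, Hsp90aa1 and Hspa1a. With the genotype of either the title or the source name in all libraries 0 were called there. Leaving out each library gave 0 to 4, with 0 without mTEC hi WT replicate 2 or 3, 3 without mTEC lo deficient replicate 1 and 4 without replicate 2; a lone library is assumed to vary like the other groups. Over the libraries left out, the log2 difference in mTEC hi ranged from -0.21 to 0.02 for Hspa8, -0.44 to 0.02 for Hspb1 and -0.29 to 0.07 for Bag3.

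The title numbers share only a number: libraries of the same title in both cell types correlated by 0.01 to 0.12. With the title number as a replicate block 20 genes were called higher and 35 lower, Hspa8 was 0.07 and Bag3 0.05 in mTEC hi, and Hspb1 was 0.01 in mTEC lo. Not every library correlated best with its own number. The cause of each change was not tested. Depth limits Dnajc5b, Dnajb7, Dnajb8 and Dnajc5g, and 2 libraries a group limit the genotype comparison.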
